A study of Mus musculus with 2 samples.

Results

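Endothelial cells of the mouse aorta were described in 2 single-cell RNA libraries, 1 from MGP knock-in mice, whose matrix Gla protein (MGP) is mutated, and 1 from wild-type mice. Of 10116 barcodes kept as cells, 150 were endothelial by a marker rule, 77 of 6419 in the knock-in library and 73 of 3697 in the wild-type library. A cell was kept with at least 1000 UMIs (unique molecular identifiers, 1 per captured RNA molecule), at least 500 genes and at most 10% mitochondrial UMIs. It was called endothelial with at least 10 UMIs summed over Pecam1, Cdh5, Egfl7, Vwf, Cldn5 and Ptprb and fewer than 20 over the macrophage genes C1qa, C1qb, C1qc and Lyz2. Both groups were mice of 1 month, males and females, with the batch label 1 and no other allele or agent named. Per the labels' protocols the aortas were perfused, stripped of adventitia and digested with Liberase, and dead cells were sorted out with DAPI. Which residue was mutated, how many mice each library pooled and the hour of collection are not stated in the sources used here.

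The aortic endothelium is a single cell layer that lines the lumen, senses blood flow, sets the tone of the smooth muscle beneath it and keeps blood from clotting. MGP is a small secreted protein that binds bone morphogenetic proteins (BMPs) and limits their signalling, and mice without it calcify their arteries. Endothelial cells both make BMP ligands and respond to them through the receptors ALK1 (Acvrl1) and BMPR2 with the co-receptor endoglin.

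The knock-in library held 85831737 UMIs in all and a median of 11820 UMIs per kept cell, and the wild-type library 79626104 UMIs and a median of 20480. The median mitochondrial share was 3.06% in knock-in and 1.87% in wild-type kept cells. The libraries shared 4 kept barcodes, none of them endothelial. Endothelial cells were closer in depth, with a median of 11218 UMIs in knock-in cells (3353 to 36892) and 12718 in wild-type cells (3147 to 47117). Each genotype was 1 library, so differences have no replicate check and no test was possible. Levels are UMIs summed over cells, given per 1000000 UMIs of the same cells (CPM), and ratios are log2 of knock-in over wild-type. The 95% intervals beside ratios and shares are exact binomial ones that cover counting error only. The other kept cells differed in makeup, with smooth muscle markers at 23746 CPM in knock-in and 4748 CPM in wild-type cells and fibroblast markers at 37873 CPM in knock-in and 69221 CPM in wild-type cells. Ratios given for them carry that difference as well.

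By the rule, endothelial cells made up 1.20% of kept knock-in cells (0.948% to 1.5%) and 1.97% of kept wild-type cells (1.55% to 2.48%). Dissection, digestion and the DAPI sort can set such shares. All 6 rule genes were detected in 34 of 77 knock-in members (44.2%) and 37 of 73 wild-type members (50.7%). The summed rule genes had a median of 62 UMIs per knock-in member and 81 per wild-type member. The members were not all alike. Fibroblast and smooth muscle markers together took over 2% of the UMIs of 19 knock-in members (24.7%) and 9 wild-type members (12.3%). Only 1 or 2 of the 6 rule genes were seen in 15 knock-in and 7 wild-type members, all of them with over 2% stromal UMIs except 5 knock-in cells. In 11 knock-in members and 0 wild-type members the only rule gene was Pecam1, an adhesion protein that leukocytes carry too. A knock-in cell of this kind with 30115 UMIs held 17 UMIs of the T cell gene Cd3e and 13 of the leukocyte gene Ptprc. Another with 25169 UMIs held 10 of Ptprc. The rest of these 11 cells held no Ptprc UMI and had 144 to 721 UMIs of fibroblast markers. The macrophage limit removed 0 knock-in cells and 1 wild-type cell.

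A stricter set was therefore followed beside the full one: cells with at least 3 of the 6 rule genes and at most 2% stromal UMIs, called multi-marker cells here. These were 53 of the 77 knock-in members (68.8%, 57.3% to 78.9%) and 64 of the 73 wild-type members (87.7%, 77.9% to 94.2%). All 18 genes of an endothelial marker list were detected in them in both libraries, and the list summed to 14701 CPM in knock-in and 13558 CPM in wild-type multi-marker cells. In the other cells the same list summed to 391 CPM in the knock-in and 669.9 CPM in the wild-type library. The 12 macrophage markers summed to 31.3 CPM in knock-in multi-marker cells, with C1qa, Cd68, Csf1r, Adgre1 and Tyrobp at 0, and to 59.5 CPM in wild-type ones, with Adgre1 and Ptprc at 0. Smooth muscle markers stood at 814 CPM in knock-in multi-marker cells and 1511 CPM in wild-type ones, where Myh11 and Des were at 0. Fibroblast markers stood at 1295 CPM in knock-in and 2054 CPM in wild-type multi-marker cells, Fmod at 0 in both. Pericyte markers stood at 257 CPM in knock-in and 29.2 CPM in wild-type multi-marker cells, with Higd1b at 0 in both. Of the 148 knock-in pericyte UMIs, 128 lay in 1 capillary-like cell with a high doublet score, and without it the list was at 36.1 CPM. The rule and the multi-marker criteria use part of the endothelial list and limit macrophage and stromal UMIs, so these sums describe the selected cells and are no separate check of the label. Values below are those of multi-marker cells unless all members are named.

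Near the threshold the rule was less sure. With 10 to 12 rule UMIs there were 11 knock-in members, with a median of 2.93% stromal UMIs, and 3 wild-type members, with a median of 6.08%. Just outside it, with 5 to 9 rule UMIs, lay 113 knock-in and 60 wild-type cells, with a median of 4.70% stromal UMIs in knock-in and 5.85% in wild-type cells. None of these cells met the multi-marker criteria.

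**Figure D1:**
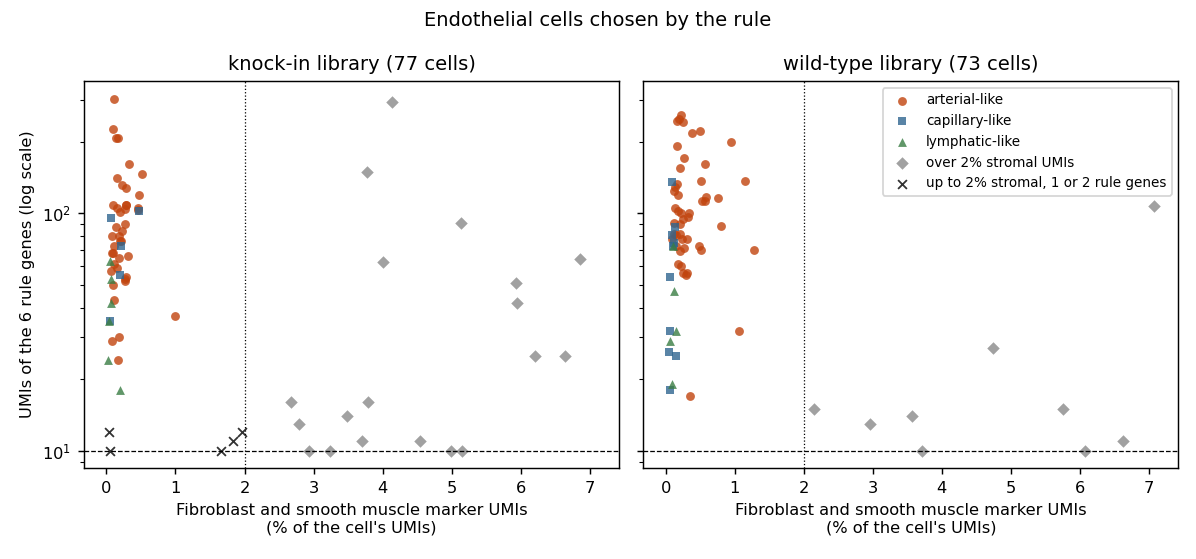
Each point is 1 endothelial cell by the rule, knock-in in the left panel and wild-type in the right. The vertical axis gives summed UMIs of the 6 rule genes on a log scale (dashed line at 10 UMIs), the horizontal axis the percent of UMIs from fibroblast and smooth muscle markers (dotted line at 2%), and colour and shape the kind of cell. Multi-marker cells (53 knock-in, 64 wild-type) lie left of the dotted line. Of the 19 knock-in and 9 wild-type cells right of it, 9 knock-in and 2 wild-type cells held at least 3 rule genes. These had a median of 62 rule UMIs in knock-in (10 to 292) and 67 in wild-type cells (27 to 107). High doublet scores marked 7 of these knock-in and 2 of these wild-type cells. The rest held at most 25 rule UMIs in knock-in and 15 in wild-type cells.

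The genes that set endothelial cells furthest above the other cells were classical ones, listed here as a description since the cells were chosen by such genes. Of 9455 genes with at least 20 UMIs over the members of both libraries, 438 (4.63%) were at least 4-fold higher in endothelial than in other cells in each library. Tie1, an orphan receptor of the angiopoietin system, had 197 CPM in all knock-in members and 187 CPM in all wild-type members, against 0.0506 and 0.0534 CPM in the other cells of these libraries. The 14 genes that followed it were Gja5, Emcn, Myct1, Stmn2, Sox18, Mall, She, Nos3, Podxl, Icam2, Selp, Rasip1, Adgrf5 and Bmx. Gja5 encodes the arterial gap junction protein connexin 40, Nos3 the endothelial nitric oxide synthase, Sox18 a transcription factor of vessels, and Selp the leukocyte-binding P-selectin. Stmn2, a microtubule regulator best known from neurons, stood at 252 CPM in knock-in and 275 CPM in wild-type members, against 0.190 CPM in knock-in and 0.240 CPM in wild-type other cells. Cytl1, a secreted cytokine-like protein, was among the most abundant endothelial transcripts, at 3096 CPM in knock-in and 3118 CPM in wild-type multi-marker cells.

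The multi-marker cells were sorted into 3 kinds by their UMIs of marker lists, and the kinds are ranges of these scores. Cells with at least 10 UMIs of the lymphatic list were called lymphatic-like, and the rest arterial-like unless the capillary list had more UMIs than the arterial one. Some lymphatic-like cells held more UMIs of the capillary than of the lymphatic list. These were 90 against 31 in 1 knock-in cell and 35 against 17 in 1 wild-type cell. Arterial-like cells were 42 of 53 in the knock-in (79.2%, 65.9% to 89.2%) and 49 of 64 in the wild-type library (76.6%, 64.3% to 86.2%). Capillary-like cells were 5 of 53 (9.43%, 3.13% to 20.7%) in the knock-in and 10 of 64 (15.6%, 7.76% to 26.9%) in the wild-type library. Lymphatic-like cells were 6 of 53 (11.3%, 4.27% to 23%) in the knock-in and 5 of 64 (7.81%, 2.59% to 17.3%) in the wild-type library. The intervals of the 2 libraries overlapped for every kind. High doublet scores marked all 6 knock-in and 0 of 5 wild-type lymphatic-like cells, 2 of 5 knock-in and 1 of 10 wild-type capillary-like cells, and no arterial-like cell of either library. Without the marked cells no knock-in lymphatic-like cell is left to compare, and the part of doublets in the values of that kind was not tested. The cuts were seldom close: 1 cell per library lay at 5 to 14 UMIs of the lymphatic list, and 1 per library near the arterial and capillary cut. Cd3e and the other T and B cell markers came to 1 UMI in knock-in and 0 in wild-type multi-marker cells.

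Arterial-like cells carried Cytl1 at 3854 CPM in knock-in and 3628 CPM in wild-type cells, and Cytl1 was at 0 in lymphatic-like cells of both libraries. They also held nearly all of the elastin message, with Eln at 6445 CPM in knock-in and 14323 CPM in wild-type arterial-like cells, against 1251 CPM in knock-in and 1081 CPM in wild-type capillary-like cells. Fabp4, Cd36 and Aqp1 belong to the capillary list and Prox1, Mmrn1 and Ccl21a to the lymphatic list, which sorted the cells. Their levels by kind are thus largely set by the sorting and are given as a description. Capillary-like cells were led by Fabp4, a fatty acid carrier, at 11204 CPM in knock-in and 12297 CPM in wild-type cells. Cd36, a fatty acid transporter, reached 1132 CPM in knock-in and 2102 CPM in wild-type capillary-like cells, and the water channel Aqp1 1391 CPM in knock-in and 814 CPM in wild-type ones. Lymphatic-like cells held Prox1, the transcription factor that specifies lymphatic identity, at 745 CPM in knock-in and 566 CPM in wild-type cells. Mmrn1, a matrix glycoprotein of lymphatic vessels, was at 2056 CPM in knock-in and 1772 CPM in wild-type lymphatic-like cells and at 0 in the other kinds. The chemokine Ccl21a came from 2 cells in each library. Mgp itself was a gene of the arterial-like cells, at 11144 CPM in knock-in and 9064 CPM in wild-type cells, with 2602 CPM in knock-in and 3390.2 CPM in wild-type capillary-like cells.

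**Figure D2:**
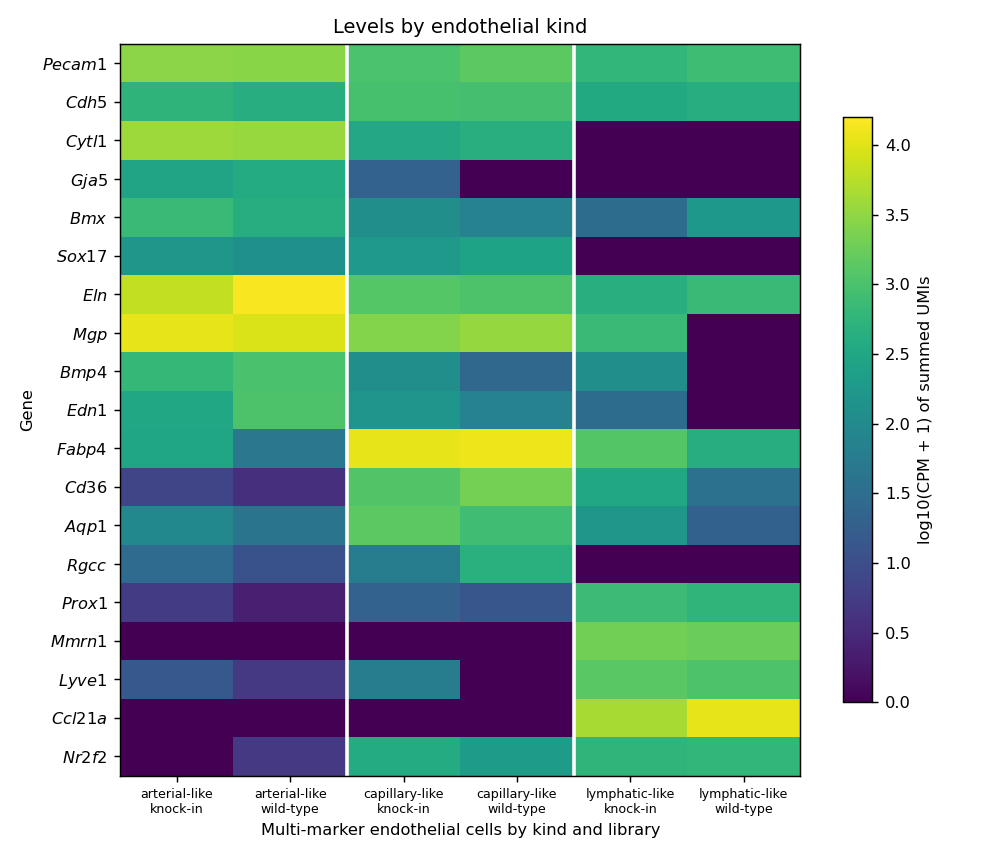
Colour gives log10(CPM + 1) of summed UMIs for 19 genes (rows) in arterial-like, capillary-like and lymphatic-like multi-marker cells (columns), knock-in left of wild-type in each pair. Cytl1, Eln and Mgp are brightest in the arterial-like pair, Fabp4 and Cd36 in the capillary-like pair, and Prox1, Mmrn1 and Lyve1 in the lymphatic-like pair. Fabp4, Cd36, Prox1, Mmrn1 and Lyve1 belong to the lists that sorted the cells.

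Between the libraries, 626 of 9455 genes (6.62%) were at least 2-fold higher and 336 (3.55%) at least 2-fold lower in all knock-in than in all wild-type members. In multi-marker cells these were 395 (4.98%) and 343 (4.33%) of 7925 genes. The same cut in the other cells took 1739 (9.68%) higher and 1196 (6.66%) lower of 17963 genes. The median ratio over all genes lay within 0.1 of 0 in each of the 3 sets. A single cell could make such a difference: in 81 of the 626 higher genes (12.9%) and 26 of the 336 lower genes (7.74%), more than 50% of the UMIs of the higher library came from 1 cell.

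MHC class II genes, which display peptides to CD4 T cells and are mainly used by professional antigen-presenting cells though endothelium can be induced to make them, took the first 4 places among genes lower in the knock-in members, ranked by the interval bound nearest 0. Cd74, the invariant chain that guides class II molecules, had 12.2 CPM in knock-in and 844 CPM in wild-type multi-marker cells, a log2 ratio of -6.12 (-7.43 to -5.07). The alpha chain H2-Aa had 3.48 CPM in knock-in and 258 CPM in wild-type cells. The beta chains were similar, H2-Ab1 at 12.2 CPM in knock-in and 192 CPM in wild-type cells and H2-Eb1 at 6.95 CPM in knock-in and 192 CPM in wild-type cells. H2-DMb1, a chain of the peptide-loading partner H2-DM, was at 1.74 CPM in knock-in and 74.0 CPM in wild-type cells. Over all members the ratios were -5.24 for Cd74, -5.78 for H2-Aa, -4.04 for H2-Ab1, -4.54 for H2-Eb1 and -3.19 for H2-DMb1. In the other cells, where macrophages also carry these genes, the Cd74 ratio was -0.55 (199 CPM in knock-in, 290.3 CPM in wild-type cells). Ciita, the master regulator of class II transcription, had 0 UMIs in knock-in and 4 in wild-type multi-marker cells, too few for a ratio.

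Class II and class I promoters share a box with an inverted CCAAT core that the factor NF-Y binds. The windows below run from 250 bases before to 50 bases after the start of 4 of the genes with lower knock-in levels (RefSeq, GRCm38.p6), read on the gene's own strand, and are shown because these genes differed together. They were chosen after their values were seen. Capitals mark CTGATTGG or its reverse complement CCAATCAG, a sequence also chosen with the results known.
H2-Aa, chr17:34287774-34288073, minus strand: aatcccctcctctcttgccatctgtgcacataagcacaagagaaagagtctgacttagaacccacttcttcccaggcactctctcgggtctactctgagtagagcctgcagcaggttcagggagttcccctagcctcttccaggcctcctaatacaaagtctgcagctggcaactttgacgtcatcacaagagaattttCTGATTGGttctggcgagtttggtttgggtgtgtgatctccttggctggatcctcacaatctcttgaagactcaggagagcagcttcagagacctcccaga
H2-Eb1, chr17:34305617-34305916, plus strand: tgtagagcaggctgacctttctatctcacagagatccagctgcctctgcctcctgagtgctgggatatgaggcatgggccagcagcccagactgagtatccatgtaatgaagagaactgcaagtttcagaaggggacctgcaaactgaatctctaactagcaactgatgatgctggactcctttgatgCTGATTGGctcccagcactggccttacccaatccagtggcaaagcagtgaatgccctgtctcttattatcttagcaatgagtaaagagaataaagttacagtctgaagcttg
H2-D1, chr17:35262844-35263143, plus strand: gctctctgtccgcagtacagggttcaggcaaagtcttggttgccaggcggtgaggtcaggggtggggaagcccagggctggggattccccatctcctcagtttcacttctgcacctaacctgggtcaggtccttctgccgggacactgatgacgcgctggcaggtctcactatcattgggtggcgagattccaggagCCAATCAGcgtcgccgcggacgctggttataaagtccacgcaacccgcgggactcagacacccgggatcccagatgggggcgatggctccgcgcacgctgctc
H2-Q7, chr17:35438905-35439204, plus strand: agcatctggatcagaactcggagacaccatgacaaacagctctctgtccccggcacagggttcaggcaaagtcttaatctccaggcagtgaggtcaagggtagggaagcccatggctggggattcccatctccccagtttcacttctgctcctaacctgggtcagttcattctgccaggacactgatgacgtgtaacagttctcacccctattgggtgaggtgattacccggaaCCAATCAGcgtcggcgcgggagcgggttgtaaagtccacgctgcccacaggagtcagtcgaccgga
The match lies 51 to 44 bases before the start in H2-Aa, 62 to 55 in H2-Eb1, 53 to 46 in H2-D1 and 16 to 9 in H2-Q7, and it is on the opposite strand in H2-D1 and H2-Q7. Searched on both strands, the 8 letters occur in 1346 of all 32851 promoter windows of that table (4.10%), which is 1271 of its 27025 genes (4.70%). They occur in 6 of 9 antigen presentation genes matched there (H2-K1, H2-D1, H2-Q7, H2-Aa, H2-Eb1 and Tap1, not B2m, H2-DMb1 or Psmb8) and in 0 of 6 interferon genes (Ifit1, Ifit3, Isg15, Irf7, Bst2 and Ifitm3). These gene groups were also formed with the results known, so the counts only describe them. A part of this box in the differences was not tested. The H2-K1 match lies after the start in 1 window (-8 to -15 bases before it) and across it in the other (6 to -1). In Tap1 the match lies 222 to 215 bases before the start. Of 19 genes looked up, 15 were matched. This look-up did not take in every chromosome, so an unmatched gene may still have a window. The shares over all windows and genes do include the windows it left out. H2-Ab1 and Cd74 are named only.

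Class II UMIs were spread over many wild-type cells. Counting Cd74, H2-Aa, H2-Ab1, H2-Eb1, H2-DMa and H2-DMb1, a UMI was found in 13 of 53 knock-in multi-marker cells (24.5%, 13.8% to 38.3%) and in 49 of 64 wild-type ones (76.6%, 64.3% to 86.2%), at median depths of 9496 UMIs in knock-in and 12501 in wild-type cells. Cells rich in fibroblast or smooth muscle RNA, taken as a background, held one in 17.6% of knock-in cells (median 11830 UMIs) and 31.7% of wild-type cells (median 21375 UMIs). The knock-in endothelial share lay near that background, and the wild-type share well above it. By level, which does not rise with depth in this way, stromal cells had 52.7 CPM in knock-in and 29.8 CPM in wild-type cells. Multi-marker cells had 45.2 CPM in knock-in and 1605 CPM in wild-type cells. Whether stromal cells make these RNAs themselves was not tested. With at least 5 UMIs there was 1 knock-in cell (1.89%) and there were 35 wild-type cells (54.7%), against 0.353% of knock-in and 0.653% of wild-type stromal cells. The total was 26 UMIs in knock-in and 1431 in wild-type multi-marker cells, and the cell with the most held 13 of the knock-in and 200 of the wild-type UMIs. A collagen-scaled estimate of free RNA gave 8.75 CPM of Cd74 in knock-in and 28.8 CPM in wild-type multi-marker cells. That is close to the measured level in the knock-in and far under it in the wild-type cells. The estimate can be too high. For Col1a1 it gave 198 CPM in knock-in and 432 CPM in wild-type cells, where 57.4 CPM in knock-in and 168 CPM in wild-type cells were measured. How much of the knock-in Cd74 was free RNA was not tested.

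The difference lay mostly in arterial-like cells, where 11 of 42 knock-in (26.2%) and 43 of 49 wild-type cells (87.8%) had a class II UMI and the median per cell was 0 in knock-in and 11 in wild-type cells. In capillary-like cells it was 0 of 5 in the knock-in and 5 of 10 in the wild-type library, and in lymphatic-like cells 2 of 6 in the knock-in and 1 of 5 in the wild-type library. Among multi-marker cells with no UMI of C1qa, C1qb, C1qc or Lyz2, class II genes had 24 UMIs in 47 knock-in cells and 946 in 43 wild-type cells. The cells had been chosen with few of these macrophage UMIs. Depth was also evened out by thinning cells to 3000 UMIs, which left out 408 knock-in and 77 wild-type kept cells that were shallower. Endothelial cells, chosen anew there with at least 3 rule UMIs, had a class II UMI in 7 of 84 knock-in (8.33%) and 39 of 70 wild-type cells (55.7%). The multi-marker criteria were not applied there, so these cells are a different set and the change is not one of depth alone. For multi-marker cells at full depth the counts differed in the same direction in both sexes. Among female cells (Xist but no Y-linked UMI) it was 6 of 20 knock-in and 16 of 27 wild-type cells, and among male cells (the reverse) 6 of 21 knock-in and 26 of 27 wild-type cells.

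**Figure D3:**
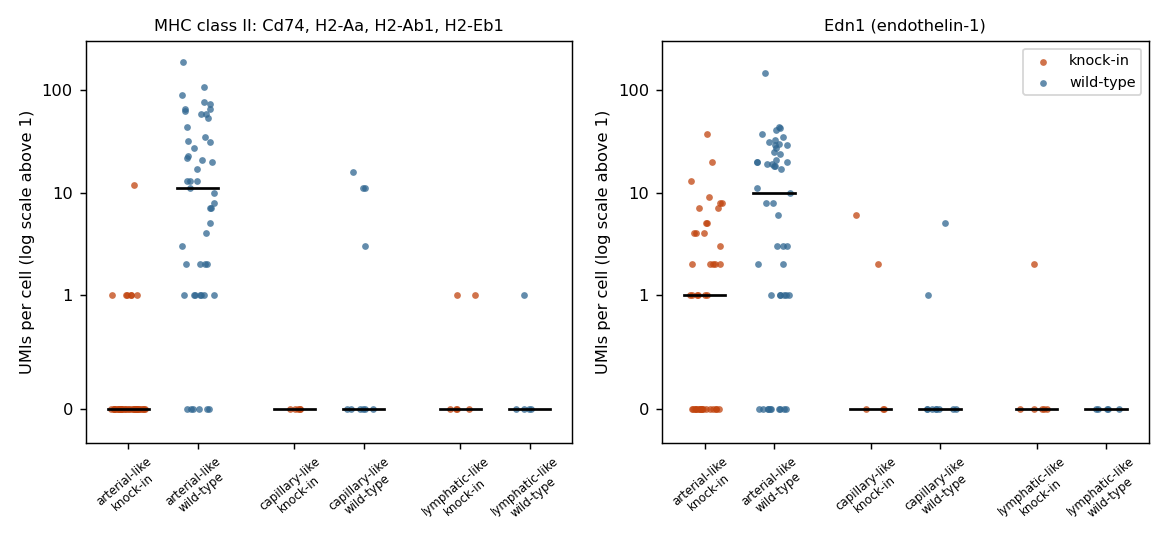
Each point is 1 multi-marker cell, with UMIs per cell of 4 class II genes (Cd74, H2-Aa, H2-Ab1, H2-Eb1) in the left panel and of Edn1 in the right, by kind of cell and with knock-in left of wild-type. Black lines are medians; wild-type arterial-like cells reach high class II counts while nearly all knock-in cells sit at or near 0, and Edn1 runs lower in knock-in than in wild-type arterial-like cells with wide overlap.

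Class I genes, which display peptides to CD8 T cells, were also lower in knock-in cells, by less. H2-K1 had a median of 1032 CPM per knock-in cell (0 to 5522) and 2568 CPM per wild-type cell (156 to 5940.0). Its summed level was 1205 CPM in knock-in and 2698 CPM in wild-type cells, a log2 ratio of -1.16 (-1.29 to -1.04), against -0.50 in the other cells. The ranges of single cells overlapped. H2-D1 was at 1492 CPM in knock-in and 3430.2 CPM in wild-type cells (-1.20 (-1.31 to -1.09)), with -0.45 in the other cells. The non-classical H2-Q7 was at 153 CPM in knock-in and 489 CPM in wild-type cells, a ratio of -1.68, and stood under 5 CPM in the other cells of both libraries. Class I genes are near-identical copies of one another, so reads may be split among them. B2m, the shared light chain, differed by -0.81 (1113 CPM in knock-in, 1953 CPM in wild-type cells) where the other cells gave 0.05. Tap1, a subunit of the peptide transporter, was at 26.1 CPM in knock-in and 63.9 CPM in wild-type cells, and the immunoproteasome subunit Psmb8 at 139 CPM in knock-in and 261 CPM in wild-type cells.

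By sex the class I difference was unequal in size, H2-K1 at 1336 CPM in knock-in and 2051 CPM in wild-type female cells (-0.62) and 1071 CPM in knock-in and 3109.6 CPM in wild-type male cells (-1.54). The number of mice behind each sex is not known, and this contrast was not tested. In the few lymphatic-like cells H2-K1 ran the other way, 1013 CPM in knock-in and 358 CPM in wild-type cells. The GTPases Igtp and Gbp2, which interferon gamma induces, were at 8.69 CPM in knock-in and 71.8 CPM in wild-type cells for Igtp and 40.0 CPM in knock-in and 149 CPM in wild-type cells for Gbp2. Genes best known as type I interferon targets did not share one direction. Bst2 was lower in knock-in cells (290.3 CPM, against 529 CPM in wild-type cells), as in the other cells (-0.80). Ifitm3 stood at 1643 CPM in knock-in and 1460.5 CPM in wild-type cells, and Isg15, Ifit3 and Irf7 had intervals that held 0. Of the 15 genes of an antigen presentation and interferon list, 9 were at least 1.5-fold lower and 0 higher in knock-in multi-marker cells, with a median of -0.85. Over all genes with at least 10 UMIs in those cells, 13.8% were 1.5-fold lower and 17.9% higher, with a median of 0.03, and the list counts given for multi-marker cells are to be read against these shares. In the other cells the list's median was -0.44.

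Edn1, which encodes the vasoconstrictor endothelin-1, was the other abundant endothelial product among the 12 genes with the lowest ratios. It had 278 CPM in knock-in and 915 CPM in wild-type multi-marker cells, a log2 ratio of -1.72 (-1.97 to -1.47), and -1.92 over all members. In arterial-like cells the median was 132 CPM per knock-in cell and 836 CPM per wild-type cell. A UMI was found in 25 of 42 knock-in and 39 of 49 wild-type arterial-like cells, against 9.42% of knock-in and 15% of wild-type stromal cells. Capillary-like cells gave 159 CPM in knock-in and 72.9 CPM in wild-type cells, and lymphatic-like cells 29.8 CPM in knock-in and 0 in wild-type cells. The ratio was -0.86 among female and -2.71 among male multi-marker cells, and -0.35 in the other cells. Ece1, the enzyme that cuts the endothelin precursor, was at 621 CPM in knock-in and 535 CPM in wild-type cells. The endothelin receptor gene Ednrb had 4 UMIs in knock-in and 27 in wild-type cells.

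Of the remaining genes of vascular tone, Nos3 was at 238 CPM in knock-in and 261 CPM in wild-type multi-marker cells (-0.13 (-0.45 to 0.18)), a difference within counting error, although over all members it was -0.57. The prostaglandin enzymes were lower in knock-in cells, Ptgs1 at 149.5 CPM against 211 CPM in wild-type cells and the prostacyclin synthase Ptgis at 362 CPM against 507 CPM. Gucy1a1, a subunit of the receptor for nitric oxide, was higher, at 76.5 CPM in knock-in and 19.1 CPM in wild-type cells, and most of it lay in the capillary-like and lymphatic-like cells. The knock-in cell rich in pericyte markers held 9 of its 44 knock-in UMIs, and without that cell the knock-in level was 63.3 CPM. Of 10 tone genes measured, 2 were at least 1.5-fold lower and 1 higher in knock-in multi-marker cells, with a median of -0.31, where 13.8% of all genes were lower and 17.9% higher. These shares are close to those of all genes. Klf2 and Klf4, transcription factors that laminar flow induces, were at 1818 and 914 CPM in knock-in cells, against 1641 and 855 CPM in wild-type cells. Over 11 flow-responsive genes measured, Edn1 included, 1 was 1.5-fold lower and 0 higher, with a median of 0.01. Among clotting genes Vwf, which tethers platelets, was higher in knock-in cells (1114 CPM, against 793 CPM in wild-type cells), though a gene of the rule. The protein C receptor Procr was lower in them (268 CPM, against 417 CPM in wild-type cells), and thrombomodulin (Thbd) differed by -0.10 with an interval that held 0.

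Elastic fibres give the aorta its recoil, and arterial-like endothelial cells carried much message for them. Eln, the elastin gene, had 5290.2 CPM in knock-in and 12289.6 CPM in wild-type multi-marker cells, a log2 ratio of -1.22 (-1.27 to -1.16). Per arterial-like cell the median was 3744 CPM in the knock-in (275 to 34127) and 14954 CPM in the wild-type library (2536 to 56497). The ranges overlapped. It was lower in knock-in cells among female (-1.33) and male (-0.91) multi-marker cells, and in the other cells (-0.68). Free RNA was put at 226 CPM in knock-in and 435 CPM in wild-type multi-marker cells, a small part of either level. Fbln5, which places elastin on microfibrils, was at 984 CPM in knock-in and 1827 CPM in wild-type cells (-0.89), and the crosslinking enzyme Lox at 252 CPM in knock-in and 359 CPM in wild-type cells (-0.51). In the opposite direction, Ltbp4, a binding protein of latent TGF-beta that also guides elastic fibre assembly, was at 1952 CPM in knock-in and 1070.1 CPM in wild-type cells (0.87 (0.74 to 0.99)), with 0.52 in the other cells. Of the 11 genes of this list, 2 were at least 1.5-fold lower and 2 higher in knock-in multi-marker cells, with a median of -0.43.

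Sparc, a collagen-binding protein that fibroblasts make in bulk, was at 2879 CPM in knock-in and 6266 CPM in wild-type multi-marker cells (-1.12), of which free RNA was put at 365 CPM in knock-in and 495 CPM in wild-type cells. Over all members its ratio was only -0.26. In the basement membrane list, Lama4, a laminin chain of vessels, was higher in knock-in cells (179 CPM, against 80.8 CPM in wild-type cells), and Col4a1 was at 466 CPM in knock-in and 512 CPM in wild-type cells. Of 15 measured genes of that list, 2 were at least 1.5-fold higher and 2 lower. The mutated gene, Mgp, was close in level, at 9177 CPM in knock-in and 8001 CPM in wild-type multi-marker cells (0.20 (0.15 to 0.25)), and 0.15 in the other cells. A change in the protein's sequence would not be seen in gene counts, so this does not check the genotype labels. By sex the Mgp ratio went both ways, with 13192 CPM in knock-in and 5889 CPM in wild-type female cells and 5778 CPM in knock-in and 9694 CPM in wild-type male cells.

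Of the BMP genes, the ligands were lower in knock-in cells. Bmp4 was at 523 CPM in knock-in and 826 CPM in wild-type multi-marker cells (-0.66 (-0.86 to -0.46)), and Bmp6 at 673 CPM in knock-in and 1002 CPM in wild-type cells (-0.57 (-0.75 to -0.40)). Bmp6 was an endothelial gene here, at 2.84 CPM in knock-in and 4.59 CPM in wild-type other cells. The antagonist Nog, which encodes noggin, had 11 UMIs in knock-in and 2 in wild-type multi-marker cells. The receptor genes Eng, Bmpr2 and Acvrl1 had ratios of 0.56, 0.31 and 0.33, the last with an interval that held 0, and Bmpr1a had -0.67. The target genes Id1, which holds back differentiation, and Smad7, an inhibitor of the pathway, had ratios of -0.10 and -0.15 with intervals that held 0. Smad6, a BMP-specific inhibitor, was at 170.4 CPM in knock-in and 229 CPM in wild-type cells (-0.43 (-0.79 to -0.07)), and Id3 at 961 CPM in knock-in and 1239.5 CPM in wild-type cells (-0.37 (-0.52 to -0.22)). Of 10 target genes measured in multi-marker cells, 2 were at least 1.5-fold higher and 1 lower, with a median of -0.01. In the other cells 7 of 12 were higher and 1 lower, where 17.6% of all genes with at least 10 UMIs were higher and 16.5% lower, with a list median of 0.59, and Id1 and Smad6 had ratios of 0.59 and 0.60 there.

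Several genes of vessel growth and of arteries were higher in knock-in multi-marker cells, with exceptions. Flt1, a VEGF receptor that traps its ligand, was at 322 CPM in knock-in and 179 CPM in wild-type cells (0.84 (0.53 to 1.16)), and Tie1 differed by 0.53. The co-receptor Nrp1 went the other way, at 327 CPM in knock-in and 487 CPM in wild-type cells (-0.57). Of 10 VEGF and angiopoietin genes measured, 4 were at least 1.5-fold higher and 0 lower, with a median of 0.40 in multi-marker cells but -0.01 over all members and -0.62 in the other cells. That list holds the rule gene Ptprb, which helped to choose the cells. Of the 12 arterial markers, 4 were at least 1.5-fold higher and 1 lower in multi-marker cells, with a median of 0.23. Over all genes these shares were 17.9% higher and 13.8% lower. Among Notch genes, the ligand Jag2 was at 73.0 CPM in knock-in and 20.2 CPM in wild-type cells (1.85 (1.03 to 2.74)) and the target Hes1 at 319.9 CPM in knock-in and 181 CPM in wild-type cells. Sema3g, an arterial semaphorin, was at 189 CPM in knock-in and 58.3 CPM in wild-type cells (1.70 (1.21 to 2.21)), its UMIs held by 23 knock-in and 18 wild-type cells. Podxl, a sialomucin of the luminal surface, was at 475 CPM in knock-in and 209.8 CPM in wild-type cells (1.18 (0.90 to 1.45)), and the hypoxia-related transcription factor Epas1 at 923 CPM in knock-in and 556 CPM in wild-type cells. The tyrosine kinase Bmx, an arterial gene, had 677 CPM in knock-in and 418 CPM in wild-type arterial-like cells. Gja5 was lower in knock-in multi-marker cells (226 CPM, against 319 CPM in wild-type cells).

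Adhesion genes for leukocytes showed no common direction. Icam2 was at 492 CPM in knock-in and 647 CPM in wild-type multi-marker cells (-0.40), Vcam1 at 861 CPM in knock-in and 716 CPM in wild-type cells (0.27), and Icam1 had an interval that held 0. The chemokine gene Cxcl12 was lower in knock-in cells (125 CPM, against 222 CPM in wild-type cells) and the selectin Sele higher (64.3 CPM, against 32.5 CPM in wild-type cells). Junction genes had a median of -0.07. The list holds the rule genes Pecam1, Cdh5 and Cldn5, which chose the cells. Cdh5 and Cldn5 had ratios of 0.27 and 0.05. For endothelial transcription factors the median was 0.25, with 2 of 17 at least 1.5-fold higher and 1, Tbx1, lower.

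Clock genes differed in every cell set. Dbp, an output gene of the circadian clock, was at 214 CPM in knock-in and 34.8 CPM in wild-type multi-marker cells (2.62), and Npas2, a partner of the activator arm, at 3.48 CPM in knock-in and 15.7 CPM in wild-type cells. The other cells had ratios of 3.62 for Dbp and -3.50 for Npas2. The time of collection is not stated, and genotype and collection time cannot be told apart.

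Metallothioneins, which bind zinc and copper, were higher in knock-in cells. Mt1 had 577 CPM in knock-in and 66.2 CPM in wild-type multi-marker cells (3.12 (2.72 to 3.55)), with a median of 160.0 CPM per knock-in and 50.6 CPM per wild-type cell. The free RNA estimate for Mt1 was 87.4 CPM in knock-in and 141 CPM in wild-type cells, the second above what was measured. Mt2 had 55 UMIs in knock-in and 4 in wild-type cells, and in the other cells the Mt1 ratio was 0.43. Nr4a1 and Atf3, early response genes, had ratios of 1.16 and 1.27, while the 15 genes of the early response list had a median of 0.09. The Ras pathway gene Rgl1 was lower in knock-in multi-marker cells, at 13.9 CPM against 65.1 CPM in wild-type cells.

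Several of the largest ratios over all members came from cells outside the multi-marker set. Tnfaip6 had 244 UMIs in knock-in and 19 in wild-type members, but 0 in knock-in and 6 in wild-type multi-marker cells. Mmp3 had 126 in knock-in and 8 in wild-type members, and 0 in knock-in and 4 in wild-type multi-marker cells. C3, Hhip, Abcc9 and Kcnma1 likewise had at most 3 UMIs in the multi-marker cells of either library. Hist1h2ap, a replication-dependent histone gene, had 60.5% of its knock-in and 94.6% of its wild-type UMIs in 1 cell.

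Dividing cells were few. At least 5 UMIs of Mki67 or Top2a, genes of cycling cells, were found in 4 knock-in and 2 wild-type members. The knock-in cells were 2 arterial-like cells and 2 cells with Pecam1 as the only rule gene, and both wild-type cells were capillary-like. The 2 Pecam1 cells also held 13 and 10 UMIs of the leukocyte gene Ptprc and gave 47 of the 103 Mki67 UMIs of the knock-in members. Sox9, a cartilage transcription factor, had 51 UMIs in knock-in and 7 in wild-type members and 0 in the multi-marker cells of both libraries. Sox2, Sp7, Bglap, Acan, Col2a1, Ibsp and Msx2 were at 0 in the members of both libraries. Alpl, an alkaline phosphatase that promotes mineral deposition and is also an arterial endothelial marker, had 22 UMIs in 8 knock-in and 5 UMIs in 2 wild-type multi-marker cells. Of the mesenchymal transition genes, Twist1 was lower in knock-in multi-marker cells (104 CPM, against 236 CPM in wild-type cells). Tagln, which the stromal limit restricts, was at 132 CPM in knock-in and 654 CPM in wild-type multi-marker cells. Free RNA was put at 115 CPM in knock-in and 93.1 CPM in wild-type cells, close to the measured level in the knock-in cells.

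**Figure D4:**
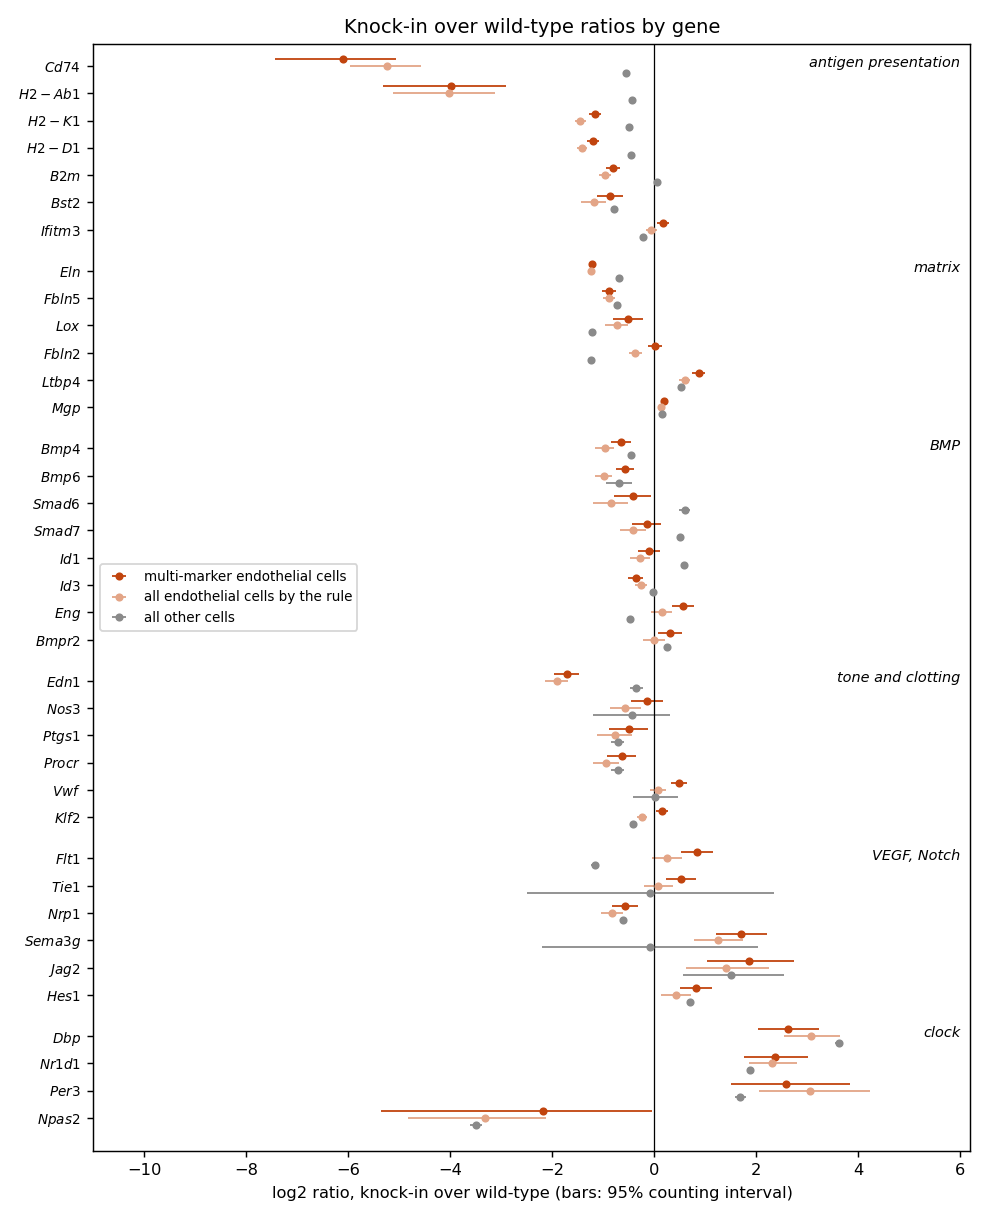
Each point is the log2 ratio, knock-in over wild-type, of a gene with its 95% counting interval. Genes are grouped by role and shown in multi-marker endothelial cells (dark orange), all endothelial cells by the rule (light orange) and all other cells (grey). Cd74 and H2-Ab1 lie far left in endothelial cells and slightly left of 0 in other cells, Edn1 and class I genes lie left to a lesser degree, and clock genes lie far from 0 in all 3 sets.

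**Figure D5:**
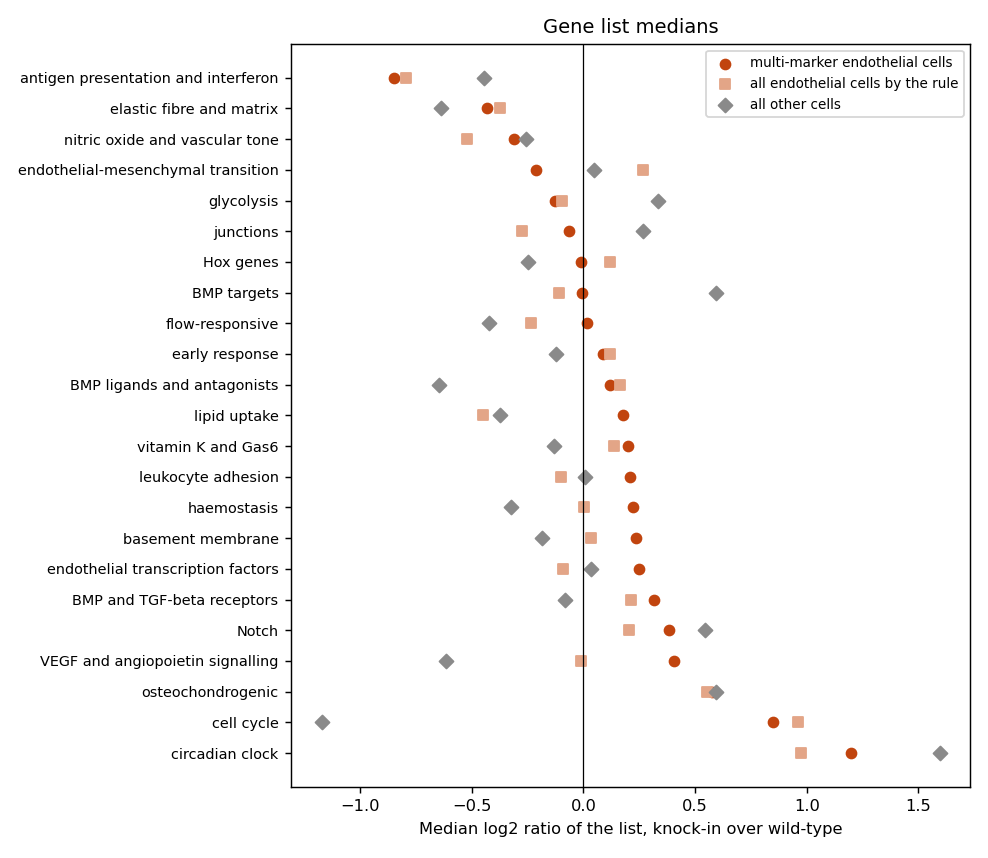
Points are the median log2 ratio of knock-in over wild-type for each gene list by function (cell type marker lists are not drawn), in multi-marker endothelial cells, all endothelial cells by the rule and all other cells. Of the lists drawn, antigen presentation and interferon lies furthest left (-0.85) and the clock list furthest right (1.20) in multi-marker cells, and the cell cycle list is on opposite sides in endothelial (0.85) and other cells (-1.17).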

How the data were processed

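The authors deposited raw UMI counts per gene and barcode for both libraries, made with Cell Ranger 7.1.0 per the submitters' processing notes. The matrices held 1421297 knock-in and 1307634 wild-type barcodes over 32285 genes, with no cell filter. Which genome build and annotation they used is not given in the sources used here. RefSeq promoter windows (GRCm38.p6) were used for sequences only.

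Cells were filtered and chosen as stated above. UMIs were summed per library and cell set and given as CPM. Ratios carry exact conditional binomial intervals and shares Clopper-Pearson intervals, at 95%. Both cover counting error only, since cells of 1 library are not replicates. Genes were compared from 20 UMIs over both libraries, and list members from 10 with 0.5 UMIs added to each sum. The ratio, its interval and the 2-fold call were tested on simulated sums with counting error only, without spread between cells. The choice of cells, their kinds, doublet scores, thinning and the free RNA estimate were not tested in this way. No doublets were removed in the main results. Scrublet scores (the highest 0.8% per 1000 cells) marked 330 knock-in and 109 wild-type kept cells for an alternative. Among these were 16 knock-in and 4 wild-type members. Other alternatives were the rule's threshold, thinning to 3000 UMIs, a 3000 UMI minimum, sex, stromal or lymphatic-like cells left out, scaling, gene minimums, each gene's top cell left out and subtraction of free RNA, estimated from barcodes with 10 to 100 UMIs scaled by collagen genes. Tools were Python 3.11.15, numpy 2.4.6, scipy 1.17.1, pandas 2.3.3, scanpy 1.11.5 and matplotlib 3.10.9.

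The members, the lists and the kinds of cell were chosen with earlier results of these data known. Genes were named as the 12 highest and 12 lowest ratios by the interval bound nearest 0 (at least 50 CPM, at least 5 cells, and 50% or more of the level in other cells), the 15 furthest above other cells, the most abundant members of each list, endothelial markers and Mgp. Ribosomal, mitochondrial, haemoglobin, immunoglobulin and sex-linked genes and unnamed gene models were left out of the first group. Ciita, less abundant list genes and the promoter motif were named after their values were seen. A gene that this rule names is not reported here.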

Additional observations from a re-analysis of the deposited data

Results flagged for a closer look

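Some ratios of knock-in over wild-type went in opposite directions in endothelial and in other cells, or in female and male endothelial cells. None of these differences could be tested, with 1 library per genotype. By list, the junction genes had a median log2 ratio of -0.28 over all endothelial members (-0.07 in multi-marker cells), against 0.27 in the other cells. Pecam1, Cdh5 and Cldn5 of that list are rule genes. The cell cycle list had a median of 0.96 over all members (0.85 in multi-marker cells), against -1.17 in the other cells. Among its genes, Mki67 had a ratio of 1.17 in endothelial members and -1.18 in the other cells, and Top2a 1.49 and -1.19. At least 5 UMIs of either gene were found in 4 knock-in and 2 wild-type members, and 2 of these knock-in cells, with 47 of the 103 knock-in Mki67 UMIs, also held the leukocyte gene Ptprc. The lymphatic genes Prox1 (0.88 in endothelial members, -0.80 in other cells) and Lyve1 (0.84 and -0.72) also differed in sign, with 6 knock-in and 5 wild-type lymphatic-like cells behind the endothelial values, and high doublet scores in 6 knock-in and 0 wild-type of these. For Alpl the ratio was 1.53 in endothelial members and -1.0 in other cells. For Spp1 it was -2.10 and 0.50, with all 32 wild-type multi-marker UMIs in 1 cell.

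Within multi-marker cells, female and male cells gave ratios of opposite sign for genes of the rarer kinds of cell. These were Prox1 (-3.70 in female, 3.45 in male cells), Lyve1 (-3.22 and 2.90), Rbp7 (-3.52 and 3.21), Cd36 (-3.23 and 3.85) and Fabp5 (-1.11 and 1.67). The arterial connexin gene Gja5 went the other way, 1.03 in female and -1.08 in male cells. Few cells lay behind these ratios. Lymphatic-like cells were 0 female and 4 male in the knock-in library, against 2 and 2 in the wild-type library. Capillary-like cells were 1 female and 1 male in the knock-in library, against 5 and 1 in the wild-type library. The male knock-in cells of these 2 kinds all had high doublet scores. The number of mice of each sex in either library is not known.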

How the results depend on the processing

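No paired analysis was possible because each genotype was 1 library. The multi-marker and arterial-like settings were chosen after seeing the data. The endothelial share of kept knock-in cells was 2.96% with the rule at 5 UMIs, 0.904% without cells over 2% stromal UMIs, 0.826% for multi-marker and 0.654% for arterial-like cells, and the wild-type share 3.60% at 5 UMIs and 1.33% for arterial-like cells. The log2 ratio of the shares moved by less than its counting interval in all 10 settings tried. Genes at least 2-fold higher numbered 282 in thinned, 314 in female, 395 in multi-marker and 394 in arterial-like cells, 225 with a minimum of 50 UMIs and 1628 with 5. Those lower numbered 713 with free RNA subtracted, 151 with 50 UMIs and 789 with 5. The number of genes measured also changes between settings, so these counts cannot be compared as shares. It was 9455 over all members (6.62% higher) and 7925 in multi-marker cells (4.98% higher). List medians over all members moved as follows. With the rule at 5 UMIs: haemostasis -0.36, VEGF -0.37, cell cycle -0.037. With the rule at 20 UMIs: mesenchymal transition 0.41, VEGF 0.28, elastic fibre -0.10, lipid uptake -0.15. With rule genes at 0.1% of UMIs: mesenchymal transition 0.41, VEGF 0.31, elastic fibre -0.16. Thinned: mesenchymal transition 0.43, tone -0.16, haemostasis -0.37, VEGF -0.54, cell cycle -0.35. Without high doublet scores: mesenchymal transition 0.10. Without stromal cells: elastic fibre -0.21, lipid uptake -0.073, early response -0.066. Female cells: mesenchymal transition -0.30, osteochondrogenic 1.82, tone -0.19, lipid uptake -1.37, early response 0.53, cell cycle -1.43. Male cells: BMP ligands -0.90, haemostasis -0.43, leukocyte adhesion -0.45, lipid uptake 1.43, early response -0.11, cell cycle 4.69. Mean of per-cell CPM: leukocyte adhesion 0.23. Free RNA subtracted: mesenchymal transition 0.030, osteochondrogenic 1.96, basement membrane -0.90, elastic fibre -0.77, early response -0.64. Over all members the estimate put 36.9% of knock-in and 25.3% of wild-type UMIs down to free RNA, and far less in multi-marker cells. Members rich in fibroblast RNA carry collagen RNA themselves, and how far this raised the estimate was not tested. The 713 lower genes and the medians with free RNA subtracted therefore do not show the part of free RNA alone. Multi-marker cells: mesenchymal transition -0.21, flow 0.014, leukocyte adhesion 0.21, VEGF 0.40, lipid uptake 0.18. Arterial-like cells: mesenchymal transition -0.30, flow -0.013, tone -0.064, leukocyte adhesion 0.31, junctions 0.045, VEGF 0.78, transcription factors 0.39, basement membrane 0.40, lipid uptake 1.06, cell cycle 2.31. Single genes changed sign for Tnfaip6 (-0.15), Alpl (-0.11) and Top2a (-0.043) with the rule at 5 UMIs, Mki67 (-0.73) and Top2a (-0.37) after thinning, Mki67 (-0.077) by per-cell means, Rbp7 (2.62) and Cd36 (3.30) in male and (2.72, 1.31) in arterial-like cells, Reln (-3.40) without high doublet scores, Serpina1e (1.38) and Hist1h2ap (-2.18) in female cells, and C3 (-0.95, -0.28) in multi-marker and arterial-like cells. Of the other gene ratios, 1694 moved little and 725 moved without a change of sign. The causes were not tested. Depth limits the rare kinds: 5 to 10 cells each.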
